A study of Mus musculus with 12 samples.

Results

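The comparison described here sets wild-type mouse macrophages given 4-octyl itaconate against macrophages labelled Irg1 knockout and given vehicle. The members are the libraries whose labels name these groups, 6 of the 12 in the series: 3 with the compound and 3 of the knockout. All libraries are RNA sequencing of bone marrow-derived macrophages, which were grown from marrow for 7 days with 20 ng/µL of the growth factor M-CSF. The compound libraries are wild type with 120 µM 4-octyl itaconate (4-OI) for 15 h. The knockout libraries carry the label Irg1KO and received vehicle for 12 h. The 3 libraries of wild-type vehicle, also at 12 h, serve as a reference for where an untreated culture lies between these groups, and the 3 of wild type with 15 µM hemin for 12 h entered the same model for its estimate of the spread. Genotype, compound and hours therefore differ together between the 4-OI and the knockout libraries, and their parts in any difference cannot be told apart. Age, sex and the deleted part of the gene are not given in the labels, nor is whether replicates came from separate mice, so a p-value measures the spread between these libraries only, which may be technical.

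Itaconate is a metabolite that activated macrophages make in mitochondria from the citric acid cycle intermediate cis-aconitate. The enzyme is Acod1, whose older name is Irg1, and cells without it cannot make itaconate by this route. The octyl ester 4-OI enters cells and reacts with cysteines, among them those of Keap1, the adaptor that marks the transcription factor NRF2 for degradation. NRF2 then switches on genes of glutathione, thioredoxin and NADPH metabolism through antioxidant response elements. The ester is also known for lowering type I interferon signalling. The comparison thus places cells with an itaconate ester added beside cells whose itaconate enzyme was targeted.

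Library totals were 9868424 to 15691585 expected counts with 4-OI and 12518096 to 17264634 in the knockout. Levels below are CPM, expected counts scaled to a common library total with TMM factors, listed for replicates 1, 2 and 3, and each difference is the log2 fold change of 4-OI over the knockout with its standard error (SE). A gene is called at an adjusted p under 0.05 in edgeR's quasi-likelihood test over 12148 genes. Macrophage genes were abundant in all libraries: Csf1r, the receptor for M-CSF, stood at 2346, 2296 and 2327 CPM with 4-OI and at 1893, 1889 and 1911 CPM in the knockout. The 27 genes of a macrophage identity list summed to 38768 to 40685 CPM with 4-OI and to 33572 to 37146 CPM in the knockout.

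Acod1 was present in every library. It had 426, 626 and 299 expected counts with 4-OI, 300.0, 240.0 and 333 in the knockout and 462, 705 and 286 in wild-type vehicle. On the CPM scale it stood at 32.7, 42.0 and 32.1 with 4-OI, at 21.7, 13.6 and 26.3 in the knockout and at 27.5, 30.5 and 25 in wild-type vehicle. All 4-OI libraries lay above all knockout libraries, but the knockout retained counts of the same order, and its libraries are called here by their label. The log2 fold change was 0.84 (SE 0.26, adjusted p = 0.0238). The call was lost without 4-OI replicate 2 (0.69, adjusted p = 0.0935), without knockout replicate 2 (0.59, adjusted p = 0.0661) and in a fit of these 6 libraries alone (0.90, adjusted p = 0.0510). In the 19 alternatives tried, its lowest and highest log2 fold changes were 0.59 and 1.05, and adjusted p-values lay between 1.77e-25 and 0.0935. The transcripts behind the Acod1 count averaged 2625, 2633 and 2594 nucleotides with 4-OI and 2644, 2653 and 2635 in wild-type vehicle. They averaged 3135, 3382 and 3132 in the knockout, whose libraries thus held a longer mix of Acod1 transcripts than both wild-type groups. Whether the counted part of Acod1 lies outside the deleted part was not tested, and a gene-level count does not check the label.

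Of the 12148 genes, 7011 were called (57.7%): 2852 were higher with 4-OI (23.5%) and 4159 were lower with 4-OI (34.2%). At least 2-fold differences were rarer on the higher side, with 342 genes (2.82%) against 1589 lower (13.1%). The median over all genes tested was -0.053 on the log2 scale. Each count of list members below is to be read beside these shares, since a list with similar shares does not stand out from all genes. Groups did not overlap in 2747 of the higher and 4015 of the lower genes. Overlap was counted within called genes only, where a call already favours separation, so these counts are no separate support. The share over all 12148 genes was not computed. The split depends on the processing: 49.8% of calls were higher in a fit of these 6 libraries alone, in place of 40.7%. On deposited FPKM with 1 added before the log, tested with limma and without TMM factors, 1767 were higher and 5357 lower (24.8% higher). The median over all genes moved by -0.081 with 1 added to FPKM and by -0.108 with 0.1 added. Scaling, test and added constant change together there, and the cause was not tested. Many of the genes at least 2-fold lower with 4-OI are weakly expressed: 804 of 1589 had a mean under 5 CPM, and together the 1589 took 2.3% of counts with 4-OI and 7.68% in the knockout. The 342 genes at least 2-fold higher took 10.5% of counts with 4-OI and 3.23% in the knockout.

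A second contrast in the same model asked where wild-type vehicle lies on the line between both groups. It is the level of wild-type vehicle minus the log2 midpoint of 4-OI and the knockout, and with equal group sizes it is orthogonal to the first contrast. Wild-type vehicle departed from the midpoint in 5899 of 12148 genes (48.6%). Of the 2852 genes higher with 4-OI, vehicle lay on the knockout's side of the midpoint in 1263 (44.3%), on the 4-OI side in 203 (7.12%), and did not depart from the midpoint by this test in 1386. Of the 4159 genes lower with 4-OI, vehicle lay on the knockout's side in 1487 (35.8%), on the 4-OI side in 1381 (33.2%), and did not depart from it in 1291. Over both directions, the sides were 2750 (39.2%) and 1584 (22.6%) of 7011. Among genes at least 2-fold lower with 4-OI the 4-OI side held 961 and the knockout's side 296, whereas among those at least 2-fold higher the knockout's side held 266 and the 4-OI side 10. A gene on the knockout's side is one whose level in 4-OI stands apart from untreated wild type more than the knockout's does, and the reverse holds for the 4-OI side.

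**Figure D1:**
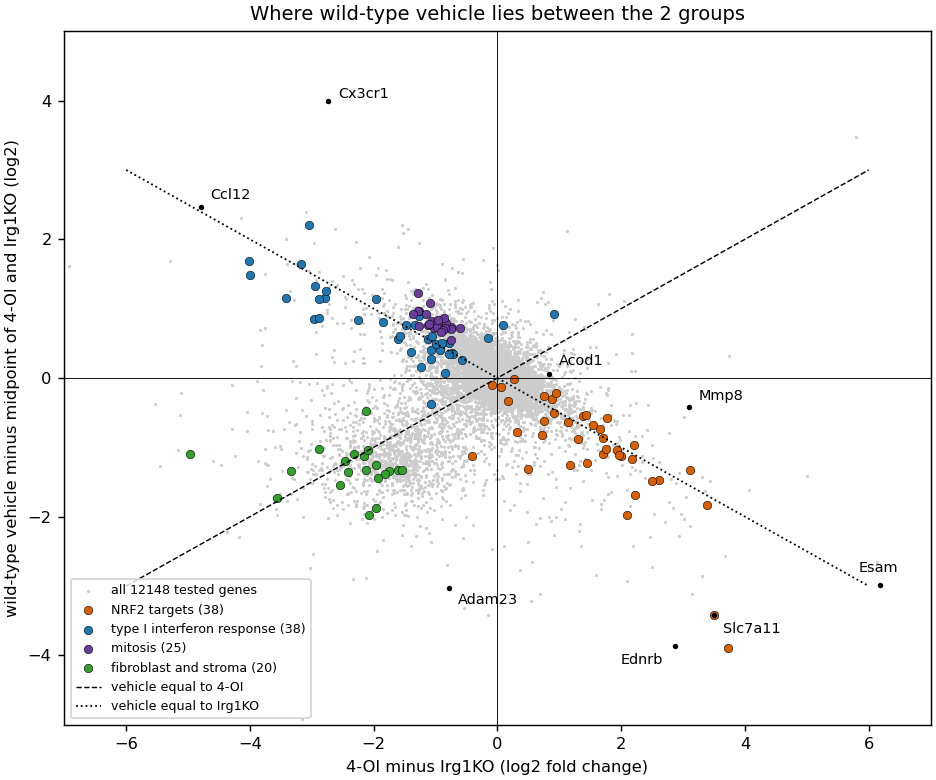
Points are genes among the 12148 tested, with the log2 fold change of 4-OI over Irg1KO on the horizontal axis and wild-type vehicle minus the midpoint of both groups (log2) on the vertical axis. A few genes beyond the axes are not drawn. On the dashed line vehicle equals 4-OI and on the dotted line it equals the knockout. NRF2 targets (orange) and interferon genes (blue) follow the dotted line at opposite ends, and the 20 fibroblast and stroma genes (green) scatter about the dashed line.

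Among genes that averaged at least 5 CPM over the 6 libraries, the greatest differences toward 4-OI were led by Esam. It encodes an adhesion molecule of endothelium and platelets. Esam, Il1f9, Cdcp1, Mgst2 and Gsta4 met that mean only through the 4-OI libraries, with at most 1.23 CPM in any knockout library. Esam stood at 32.0, 32.7 and 31.1 CPM with 4-OI, at 0.506, 0.284 and 0.553 CPM in the knockout and at 0.298, 0.692 and 0.262 CPM in wild-type vehicle. It was near its floor in every library without 4-OI (log2 fold change 6.18, SE 0.19, adjusted p = 9.23e-26), although that value depends on how low counts are handled and ran from 3.85 to 6.36 over its alternatives. Il1f9, which encodes the interleukin-1 family cytokine IL-36γ, had the same form, with 11.7, 9.67 and 14.2 CPM with 4-OI and 0.114 to 0.237 CPM in the knockout (6.13, SE 0.31; 2.88 to 6.43 over alternatives). Cdcp1, a transmembrane protein, differed by 4.49 (SE 0.28; 1.37 to 5.02 over alternatives). Mgst2, a microsomal glutathione transferase, differed by 4.06 (SE 0.19), Slc16a9, a monocarboxylate transporter, by 3.67 (SE 0.10), and Met, the receptor for hepatocyte growth factor, by 3.43 (SE 0.12). Met illustrates the pattern among them, with 68.9, 75.3 and 67.9 CPM with 4-OI, 5.50, 6.07 and 8.29 CPM in the knockout and 6.08, 9.04 and 7.70 CPM in wild-type vehicle. The last members of this group, Gsta4 and Slc7a11, are NRF2 targets.

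Of 38 tested genes on the NRF2 target list, 35 were higher with 4-OI and 1 was lower, beside 23.5% and 34.2% of all genes. The median log2 fold change of the 38 was 1.49, beside -0.053 over all genes, and their summed level was 81862 to 84106 CPM with 4-OI and 31544 to 33565 CPM in the knockout. Wild-type vehicle, at 31420 to 33160 CPM in sum, lay on the knockout's side of the midpoint in 33 of the 36 called members. Gclm and Txnrd1, whose values follow, and Prdx1 and Gsta3 are among the 7 of 29 higher members with a promoter window in the RefSeq table (GRCm38.p6) that hold the core of the antioxidant response element within 250 bases before the annotated start. The core searched is TGACNNNGC on either strand. It was found in 24.1% of these 29 promoters and in 14.0% of the windows of 9697 tested genes, so it is common, and a match describes letters only. The stretches around the match are shown on the gene's strand from 5′ to 3′, with the match in capitals, because they belong to the glutathione and thioredoxin systems described below.
Prdx1: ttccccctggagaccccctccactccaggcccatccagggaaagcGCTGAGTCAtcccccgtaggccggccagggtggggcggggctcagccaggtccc
Gsta3: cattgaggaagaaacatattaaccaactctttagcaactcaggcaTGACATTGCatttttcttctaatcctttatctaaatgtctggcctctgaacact
Gclm: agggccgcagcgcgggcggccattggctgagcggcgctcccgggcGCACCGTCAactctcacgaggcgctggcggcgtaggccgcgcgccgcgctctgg
Txnrd1: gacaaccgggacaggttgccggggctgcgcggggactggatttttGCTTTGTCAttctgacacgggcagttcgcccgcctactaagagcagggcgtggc
They lie at chr4:116685421-116685519, chr1:21240419-21240517, chr3:122245378-122245476 and chr10:82859069-82859167, all on the plus strand of GRCm38.p6, and before an annotated start. Txnrd1 has 3 windows in the table, the match is in 1 of them, and the stretch lies downstream of the start of the first window's transcript. The match starts 133, 121, 134 and 92 bases before that start for Prdx1, Gsta3, Gclm and Txnrd1 in that order.

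Among the glutathione genes, Slc7a11, the cystine importer that feeds glutathione synthesis, stood at 775, 775 and 824 CPM with 4-OI, at 67.5, 58.8 and 84.7 CPM in the knockout and at 22.6, 21.2 and 22.2 CPM in wild-type vehicle. The 3 groups did not overlap, and the knockout lay above untreated wild type (log2 fold change of 4-OI over the knockout 3.50, SE 0.11; vehicle 3.42 below the midpoint). None of the 6 libraries gave Slc7a11 a whole-number expected count, so its level rests on reads that the authors' counting assigned in part. Gclc, the catalytic subunit of glutamate-cysteine ligase, the first enzyme of glutathione synthesis, stood at 639, 671 and 649 CPM with 4-OI and at 80.1, 71.4 and 76.0 CPM in the knockout. Its knockout and vehicle libraries (90.7, 85.5 and 90.8 CPM) were close to each other and far below 4-OI (3.11, SE 0.05, adjusted p = 1.61e-32). Gclm, the modifier subunit of that enzyme, differed by 1.99 (SE 0.05) and Gss, glutathione synthetase, by 2.49 (SE 0.06). The glutathione transferases Gsta4 (3.73, SE 0.19) and Gsta3 (2.09, SE 0.09) were higher as well. As they belong to a family of similar sequences, reads may be divided among its members. Gsta4, though, had a whole-number expected count in each of the 6 libraries.

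Thioredoxin genes moved with them. Prdx1, a peroxiredoxin, stood at 16035, 15597 and 15525 CPM with 4-OI, at 2432, 2554 and 2735 CPM in the knockout and at 2221, 2417 and 2264 CPM in wild-type vehicle (2.61, SE 0.05, adjusted p = 2.73e-30). Per length it averaged 11407 FPKM with 4-OI and 2027 FPKM in the knockout. Only 2 of the 6 libraries gave Prdx1 a whole-number expected count, so its level too rests on reads assigned in part. Srxn1, sulfiredoxin, which repairs overoxidised peroxiredoxins, stood at 2298, 2282 and 2233 CPM with 4-OI and at 218, 205 and 227 CPM in the knockout (3.39, SE 0.06). Txnrd1, thioredoxin reductase, differed by 1.71 (SE 0.05), Txn1, thioredoxin, by 0.75 (SE 0.15) and Cat, catalase, by 1.96 (SE 0.05). The quinone reductase Nqo1, a standard readout of NRF2, stood at 142, 152 and 149.7 CPM with 4-OI, at 31.6, 31.8 and 31.9 CPM in the knockout and at 20.1, 22.7 and 20.2 CPM in wild-type vehicle (2.22, SE 0.07). The knockout libraries of Nqo1 were above every vehicle library and far below every 4-OI library.

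Enzymes of the pentose phosphate pathway, which supplies NADPH, were higher with 4-OI. Pgd, its second dehydrogenase, stood at 2583, 2578 and 2523 CPM with 4-OI and at 785, 787 and 871 CPM in the knockout (1.65, SE 0.05). G6pdx, the first and rate-limiting enzyme, differed by 1.38 (SE 0.05), and in its non-oxidative branch Taldo1, transaldolase, by 1.77 (SE 0.05) and Tkt, transketolase, by 0.88 (SE 0.05). Me1, malic enzyme, was an exception in form: it stood at 96.0, 102 and 104 CPM with 4-OI, at 68.3, 74.1 and 71.1 CPM in the knockout and at 33.9, 33.6 and 34.9 CPM in wild-type vehicle. Its knockout libraries lay nearer to 4-OI than to untreated wild type, and its difference between 4-OI and the knockout was small (0.49, SE 0.06). The lower member was Ephx1, microsomal epoxide hydrolase, at 37.4, 37.8 and 37.0 CPM with 4-OI, 52.1, 46.3 and 50.6 CPM in the knockout and 18.7, 20.0 and 21.2 CPM in wild-type vehicle (-0.41, SE 0.07). Ephx1 was lowest in untreated wild type and highest in the knockout, without overlap. Gstm5 (-0.09) and Cbr1 (0.06) were not called.

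The genes that control NRF2 differed less than its targets. Of 9 tested, 7 were higher and 0 lower with 4-OI, with a median of 0.38. Mafg, a small partner of NRF2 on DNA, stood at 252, 248 and 241 CPM with 4-OI and at 151, 151 and 161 CPM in the knockout (0.68, SE 0.05). Bach1, a repressor that competes for the same sites, differed by 0.48 (SE 0.05), Cul3, the scaffold of the ligase that marks NRF2, by 0.45 (SE 0.05) and Keap1 by 0.31 (SE 0.06). Nfe2l2, the gene of NRF2 itself, differed by only 0.14 (SE 0.05, adjusted p = 0.00869), a call lost on both FPKM scales and without 4-OI replicate 3.

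Of 29 tested heme and iron genes, 15 were higher with 4-OI and 8 lower, beside 23.5% and 34.2% of all genes, and the median was 0.13. Hmox1, heme oxygenase, which opens the heme ring and is also an NRF2 target, stood at 4776, 4836 and 4762 CPM with 4-OI, at 999, 1054 and 1112 CPM in the knockout and at 966, 1087 and 946 CPM in wild-type vehicle. Knockout and vehicle overlapped for Hmox1, and 4-OI stood well above both (2.18, SE 0.06, adjusted p = 8.67e-24). Blvrb, biliverdin reductase B, was higher by 1.14 (SE 0.05), Slc48a1, which carries heme out of the lysosome, by 0.92 (SE 0.06) and Slc40a1, the iron exporter ferroportin, by 1.27 (SE 0.06). Slc11a1, an iron and manganese transporter of the phagosome, differed by 1.20 (SE 0.05), and the ferritin chains Ftl1 and Fth1, the iron store, by 0.94 (SE 0.05) and 0.75 (SE 0.06). Ferritin has processed copies in the genome, so its level is uncertain. On the other side, Tfrc, the transferrin receptor that imports iron, stood at 370, 334 and 357 CPM with 4-OI, at 549, 590 and 608 CPM in the knockout and at 437, 430 and 419 CPM in wild-type vehicle (-0.72, SE 0.05). For Tfrc untreated wild type lay between both groups and did not depart from their midpoint (-0.08, adjusted p = 0.139).

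**Figure D2:**
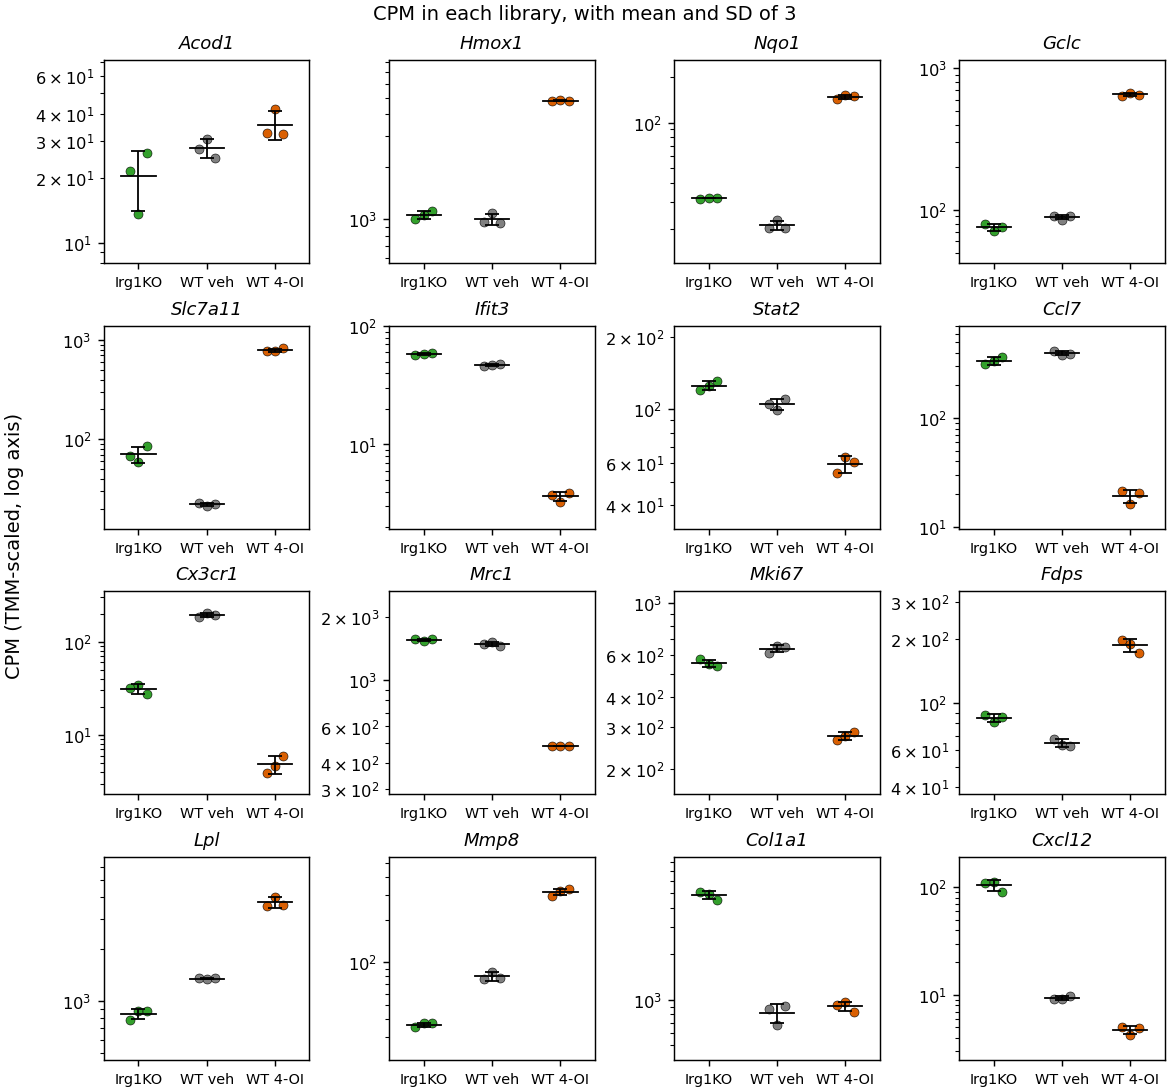
Levels of 16 genes in CPM on log axes, 1 point per library, with the mean and SD of 3 for the Irg1 knockout (green), wild-type vehicle (grey) and 4-OI (orange). Knockout and vehicle overlap for Hmox1, apart from 4-OI. For Gclc and Ifit3 they do not overlap but lie far nearer to each other than to 4-OI. The knockout stands apart for Col1a1, and the 3 groups are spread for Cx3cr1 and Slc7a11.

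Metabolic genes beyond NRF2 were also higher with 4-OI. Of 25 tested cholesterol synthesis genes 22 were higher and 1 lower, with a median of 0.75, and vehicle lay on the knockout's side of the midpoint in 20 of these 23. Fdps, which makes farnesyl diphosphate, stood at 198, 189 and 172.5 CPM with 4-OI, at 87.2, 80.8 and 86.1 CPM in the knockout and at 67.6, 63.5 and 62.8 CPM in wild-type vehicle (1.14, SE 0.05). Every 4-OI library of Fdps was above every knockout library, and vehicle was lowest. Lss, which closes the sterol rings, stood at 75.2, 78.9 and 74.8 CPM with 4-OI and at 33.4, 30.9 and 34.7 CPM in the knockout (1.21, SE 0.06). Srebf2, the transcription factor of the pathway, differed by 0.44 (SE 0.05). Ebp (0.13) and Tm7sf2 (0.41) were not called.

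Of 16 tested genes on the list of targets of LXR, the sterol-sensing nuclear receptor, 11 were higher and 3 lower, with a median of 0.61. Lpl, lipoprotein lipase, stood at 3559, 4027 and 3606 CPM with 4-OI, at 779, 874 and 883 CPM in the knockout and at 1357, 1339 and 1364 CPM in wild-type vehicle (2.14, SE 0.06). Here untreated wild type lay between the groups, on the knockout's side. Mylip, a ubiquitin ligase, differed by 1.77 (SE 0.06) and Abcg1, a cholesterol exporter, by 1.10 (SE 0.12). Abca1, the other exporter, differed in the opposite direction (-0.48, SE 0.05), as did Nr1h3, the gene of LXRα (-1.73, SE 0.18). The desaturases parted: Scd2 stood at 569.9, 600.0 and 585 CPM with 4-OI and 301, 286 and 327 CPM in the knockout (0.94, SE 0.06), while Scd1 stood at 16.8, 17.0 and 15.7 CPM with 4-OI and 46.4, 42.1 and 43.4 CPM in the knockout (-1.41, SE 0.08). In wild-type vehicle both were lower than in either group, at 137 to 146 CPM for Scd2 and 8.47 to 10.6 CPM for Scd1.

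Glycolysis genes numbered 17 higher and 1 lower of 24 tested, with a median of 0.34. Pkm, pyruvate kinase, stood at 4751, 4764 and 4741 CPM with 4-OI, at 2145, 2174 and 2154 CPM in the knockout and at 2267, 2171 and 2330.4 CPM in wild-type vehicle (1.14, SE 0.05). Slc2a1, the glucose transporter GLUT1, differed by 1.69 (SE 0.06), Slc16a3, the lactate exporter MCT4, by 1.16 (SE 0.09), Eno1, enolase, by 0.90 (SE 0.05) and Aldoa, aldolase, by 0.86 (SE 0.04). Ldha, lactate dehydrogenase, was not called (-0.03). Eno2, the lower member, had under 2 CPM in every library.

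On the lysosome and autophagy list, 23 of 35 tested genes were higher and 5 lower, with a median of 0.17. Lipa, the lysosomal acid lipase, stood at 3162, 3239 and 3101 CPM with 4-OI and at 1089.9, 1146 and 1160.4 CPM in the knockout (1.48, SE 0.05). Sqstm1, the autophagy adaptor p62 and an NRF2 target too, differed by 1.44 (SE 0.05), Gabarapl1, an autophagosome protein, by 1.08 (SE 0.06) and Tfeb, a transcription factor of lysosome genes, by 0.94 (SE 0.09). Ctsk, the collagen-degrading cathepsin, was lower with 4-OI, at 18.3, 19.7 and 17.4 CPM against 55.2, 50.7 and 55.9 CPM in the knockout (-1.53, SE 0.08), and wild-type vehicle, at 18.1, 15.2 and 16.8 CPM, overlapped the 4-OI range, with 2 of its 3 libraries below it.

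Type I interferon response genes stood on the other side. Of 38 tested, 36 were lower with 4-OI and 1 was higher, beside 34.2% and 23.5% of all genes, and the median was -1.29. Their summed level was 1496 to 1684 CPM with 4-OI, 3272 to 3578 CPM in the knockout and 3212 to 3414 CPM in wild-type vehicle, which lay on the knockout's side of the midpoint in 34 of the 37 called members. The core of the interferon-stimulated response element, GAAANNGAA on either strand, was within 250 bases before the start in 14 of 26 lower members with a window (53.8%) and in 7.6% of the windows of 9697 tested genes. Of all 27025 genes in the promoter table, 8.2% held it, and genes with several windows were counted when any held it. Adjacent matches can overlap and then run together in capitals. The stretches of 4 members are shown because their matches range from 1 to 3 and these genes are described next.
Ifit1: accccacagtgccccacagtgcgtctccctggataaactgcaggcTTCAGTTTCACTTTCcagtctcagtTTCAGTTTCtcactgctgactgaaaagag
Isg15: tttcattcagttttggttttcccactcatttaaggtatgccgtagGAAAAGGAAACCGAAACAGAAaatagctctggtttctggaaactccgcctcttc
Rsad2: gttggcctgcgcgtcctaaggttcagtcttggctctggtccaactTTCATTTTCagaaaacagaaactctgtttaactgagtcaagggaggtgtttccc
Cxcl10: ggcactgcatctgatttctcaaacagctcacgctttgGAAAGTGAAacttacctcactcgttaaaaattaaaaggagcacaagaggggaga
Their positions in GRCm38.p6 are chr19:34640735-34640833 on the plus strand for Ifit1 and, on the minus strand, chr4:156200843-156200941 for Isg15, chr12:26456518-26456616 for Rsad2 and chr5:92349049-92349139 for Cxcl10. The first match starts 109, 78, 119 and 213 bases before the start of Ifit1, Isg15, Rsad2 and Cxcl10.

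Ifit3, an RNA-binding antiviral protein, stood at 3.76, 3.29 and 3.86 CPM with 4-OI, at 57.3, 58.0 and 59.4 CPM in the knockout and at 45.7, 47.3 and 47.9 CPM in wild-type vehicle. It was low in every 4-OI library and highest in the knockout (log2 fold change -4.01, SE 0.10, adjusted p = 2.34e-28). Its close copy Ifit3b gave -4.0 (SE 0.23, range -4.14 to -2.31 over alternatives), and reads may be divided between them. Ifit2 and Ifit1, of the same family, differed by -2.95 (SE 0.09) and -2.97 (SE 0.13). Isg15, a ubiquitin-like protein, stood at 4.83, 5.24 and 4.94 CPM with 4-OI and at 32.9, 37.5 and 40.6 CPM in the knockout (-2.88, SE 0.12). Usp18, which removes it from proteins and dampens interferon receptor signalling, differed by -3.42 (SE 0.14), and Rsad2, the antiviral enzyme viperin, by -2.78 (SE 0.13). The transcription factors of the response were lower by smaller amounts. Stat2, a subunit of the factor that binds the response element, stood at 54.2, 63.5 and 60.6 CPM with 4-OI and at 121, 125 and 131 CPM in the knockout (-1.08, SE 0.06). Irf7 differed by -0.84 (SE 0.08) and Irf9 by -0.58 (SE 0.07). The RNA sensors Ddx58 (RIG-I) and Ifih1 (MDA5) differed by -1.39 (SE 0.06) and -0.72 (SE 0.06).

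One interferon gene was higher with 4-OI. Dtx3l, a ubiquitin ligase that works with Parp9, stood at 41.1, 49.2 and 49.6 CPM with 4-OI, at 24.4, 23.8 and 25.6 CPM in the knockout and at 63.7, 63.9 and 64.9 CPM in wild-type vehicle (0.92, SE 0.07). It was below untreated wild type in both groups, and furthest in the knockout. Its partner Parp9 was lower with 4-OI (-0.79, SE 0.07), and Parp14, another member of that family, differed by -0.15 (SE 0.05), a call lost with DESeq2 and in a fit of these groups only. Ifi27l2a (0.09) was not called.

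Of 11 tested CC chemokines, 7 were lower with 4-OI and 1 was higher, with a median of -1.04. Ccl7, which attracts monocytes, stood at 21.4, 16.3 and 20.3 CPM with 4-OI, at 312, 335 and 368 CPM in the knockout and at 418, 383 and 388 CPM in wild-type vehicle (-4.14, SE 0.08, adjusted p = 3.49e-22). Ccl2 stood at 105, 101 and 117 CPM with 4-OI, at 448, 513 and 535 CPM in the knockout and at 721, 633 and 726 CPM in wild-type vehicle (-2.22, SE 0.07). Both were lowest with 4-OI and highest in untreated wild type. Ccl12, a further ligand of the receptor Ccr2, differed by -4.79 (SE 0.17) from about 1 CPM with 4-OI, and Ccl4 by -2.35 (SE 0.11). Ccl3 (-0.31), Ccl9 (-0.02) and Ccl5 (0.28) were not called, nor was the receptor Ccr2 (-0.07). The higher member, Ccl25, was under 4 CPM in every library, and its call was lost without 4-OI replicate 3 or without knockout replicate 1.

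Of 11 tested CXC and CX3C chemokines, 3 were higher and 5 lower with 4-OI, beside 23.5% and 34.2% of all genes. Cxcl12, made by marrow stroma and grouped with stromal genes below, differed by -4.47 (SE 0.12). Pf4, platelet factor 4, stood at 478, 469 and 431 CPM with 4-OI and at 227, 220.2 and 228 CPM in the knockout (1.03, SE 0.05). Cxcl3, a neutrophil attractant, stood at 7.36, 11.7 and 8.26 CPM with 4-OI and at 0.948 to 1.08 CPM in the knockout (3.14, SE 0.24), whereas its relatives Cxcl1 (0.37) and Cxcl2 (0.08) were not called. The interferon-induced Cxcl10, shown above, had under 1 CPM in each 4-OI library and 2.27 to 3.4 CPM in the knockout (-3.05, SE 0.35; -3.62 to -1.53 over alternatives).

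Cx3cr1, the receptor for fractalkine on monocytes and macrophages, gave the furthest position of vehicle above the midpoint among the named genes. It stood at 3.91, 4.63 and 6.01 CPM with 4-OI, at 31.9, 34.7 and 27.6 CPM in the knockout and at 185, 205 and 192 CPM in wild-type vehicle. The 3 groups did not overlap: the knockout was far below untreated wild type, and 4-OI was below the knockout (-2.74, SE 0.16, adjusted p = 2.79e-10), with vehicle 3.99 above the midpoint on the log2 scale. Ch25h, which makes 25-hydroxycholesterol, was ordered the same way, at 6.71 to 9.36 CPM with 4-OI, 35.5 to 40.6 CPM in the knockout and 64.5 to 70.6 CPM in vehicle (-2.29, SE 0.11). Among 17 chemoattractant receptors tested, 7 were lower and 6 higher, shares near the 34.2% and 23.5% of all genes.

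Of the 25 cytokine and NF-κB feedback genes tested, 13 were lower and 9 higher with 4-OI, and the median was -0.22. Il1rn, the natural antagonist of the interleukin-1 receptor, stood at 7.44, 8.93 and 7.73 CPM with 4-OI, at 54.1, 51.8 and 45.6 CPM in the knockout and at 14.1, 16.7 and 16.4 CPM in wild-type vehicle (-2.64, SE 0.10). Untreated wild type lay between the groups and closer to 4-OI. Atf3, a stress-induced repressor of inflammatory genes, stood at 219.9, 200.4 and 199 CPM with 4-OI and at 50.8, 56.6 and 59.5 CPM in the knockout (1.89, SE 0.06). Tnfaip2, a gene that tumour necrosis factor induces, differed by 0.80 (SE 0.05), Nfkbia, the NF-κB inhibitor, by 0.58 (SE 0.07) and Nfkbiz, a nuclear co-factor of NF-κB, by -1.44 (SE 0.14). Tnf differed by -0.38 (SE 0.08). Il1b, Il6 and Nos2, hallmarks of strong activation, had at most 10 expected counts in each of the 6 libraries.

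Cell cycle genes were lower with 4-OI. All 25 tested genes on the mitosis list were called lower, with a median of -0.97 and a range of -1.36 to -0.61, and vehicle lay on the knockout's side of the midpoint in each. Mki67, the proliferation marker Ki-67, stood at 265, 273 and 285 CPM with 4-OI, at 578, 549 and 540.1 CPM in the knockout and at 614, 658 and 650.3 CPM in wild-type vehicle (-1.02, SE 0.05). Every 4-OI library was below every knockout library, and vehicle was highest. Top2a, which untangles chromosomes, differed by -1.06 (SE 0.05), Anln, the anillin of the cleavage furrow, by -1.26 (SE 0.06) and Kif11, a spindle motor, by -1.27 (SE 0.07). On the DNA replication list 24 of 25 tested genes were lower and 1, Pcna, was higher (0.22), with a median of -0.59. Uhrf1, which maintains DNA methylation at the fork, differed by -0.86 (SE 0.05), Tk1, thymidine kinase, by -1.08 (SE 0.07) and the ribonucleotide reductase subunits Rrm1 and Rrm2 by -0.77 (SE 0.05) and -0.81 (SE 0.06). In bulk libraries fewer cells of a kind, here cycling cells, and less RNA per cell cannot be told apart.

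**Figure D3:**
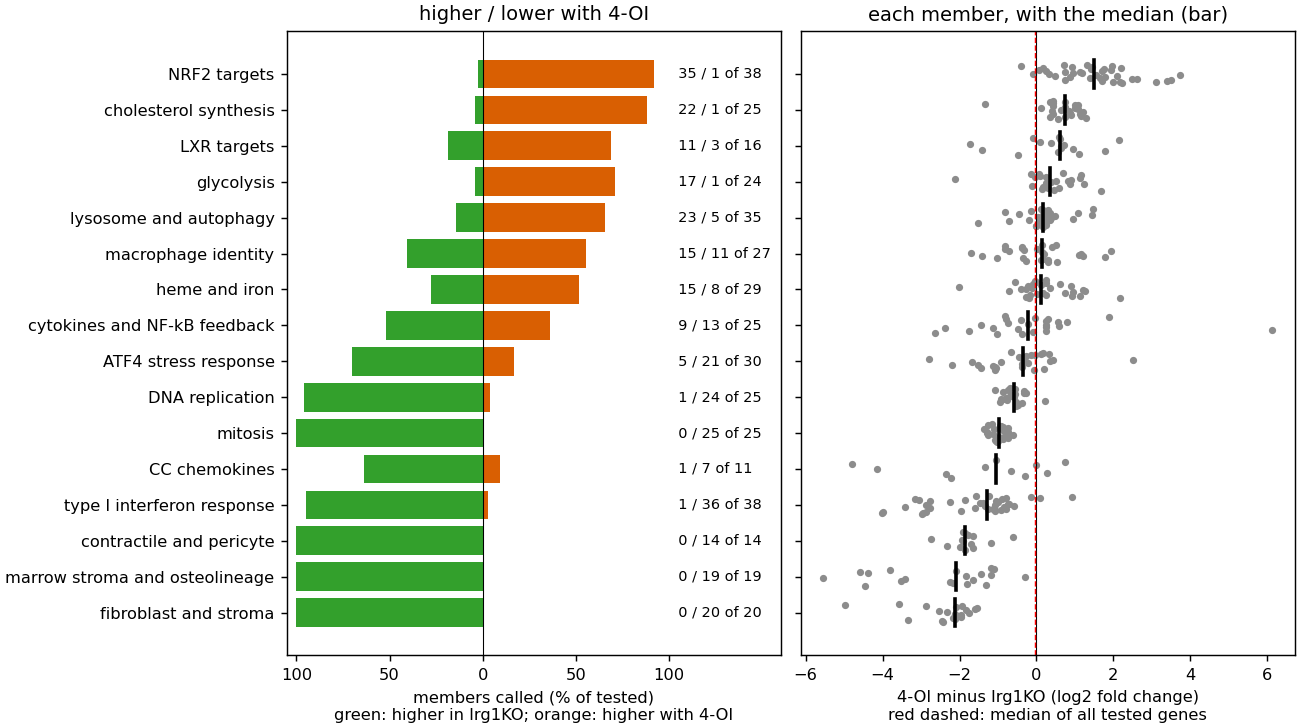
Left, the share of tested members of 16 gene lists called higher with 4-OI (orange) or higher in Irg1KO (green), in percent, with the counts printed beside the bars; right, the log2 fold change of each member (point) with the list median (bar) and the median of all genes tested (red dashed line). NRF2 targets and cholesterol synthesis lie to the right with 35 of 38 and 22 of 25 members higher with 4-OI, while mitosis, interferon response and the 3 stromal lists lie to the left.

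The most abundant genes at least 2-fold lower with 4-OI were led by 4 of the extracellular matrix. For these the knockout stood far above untreated wild type, and 4-OI lay close to it except for Fn1. Col1a1 and Col1a2 encode the chains of type I collagen. Col1a1 stood at 924, 957.5 and 833 CPM with 4-OI, at 5110.1, 4916 and 4522 CPM in the knockout and at 862, 682 and 903 CPM in wild-type vehicle (-2.42, SE 0.14). The 4-OI and vehicle ranges overlapped, and the knockout lay above both. Col1a2 differed by -2.46 (SE 0.10), Thbs1, thrombospondin, by -2.15 (SE 0.06) and Fn1, fibronectin, by -1.46 (SE 0.08). Fn1 was also higher with 4-OI, at 1041 to 1169 CPM, than in wild-type vehicle, at 770 to 871 CPM (log2 fold change 0.42). All 20 tested genes on the fibroblast and stroma list were lower with 4-OI, with a median of -2.12, and vehicle lay on the 4-OI side of the midpoint in all 20. The list summed to 14547 to 16235 CPM in the knockout, 2966 to 3272 CPM with 4-OI and 2478 to 3015 CPM in wild-type vehicle. Its defining proteoglycans Dcn and Lum had at most 10 expected counts in each of the 6 libraries.

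Beside Ccl12 and Ccl7, the widest differences toward the knockout among genes that averaged 5 CPM or more were mostly of genes known from marrow stroma and bone. Cxcl12, the chemokine that holds stem cells in marrow, stood at 5.06, 4.23 and 4.94 CPM with 4-OI, at 110.5, 113 and 89.8 CPM in the knockout and at 9.12, 9.25 and 9.71 CPM in wild-type vehicle. Ogn, osteoglycin, differed by -4.97 (SE 0.17) and Col11a1, a cartilage collagen, by -4.05 (SE 0.10). Rspo2, a Wnt agonist, differed by -4.6 (SE 0.23, range -5.14 to -2.7 over alternatives). Sfrp1, a Wnt antagonist, differed by -4.37 (SE 0.25, range -4.88 to -2.37 over alternatives). Gprin3, a neuronal G-protein regulator of which little is known in marrow, differed by -4.24 (SE 0.26; -4.41 to -0.87 over alternatives). All 19 tested genes of the marrow stroma and osteolineage list were lower with 4-OI, with a median of -2.10, and summed to 1265 to 1368 CPM in the knockout, 750.0 to 789 CPM with 4-OI and 579 to 676 CPM in vehicle. All 14 tested contractile and pericyte genes were lower, with a median of -1.86, among them Acta2, smooth muscle actin (-1.86, SE 0.10), and Cnn1, calponin (-2.33, SE 0.09). They summed to 2513 to 2982 CPM in the knockout, 777 to 877 CPM with 4-OI and 652 to 731 CPM in vehicle. The part of stromal cells in any other gene higher in the knockout was not tested.

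**Figure D4:**
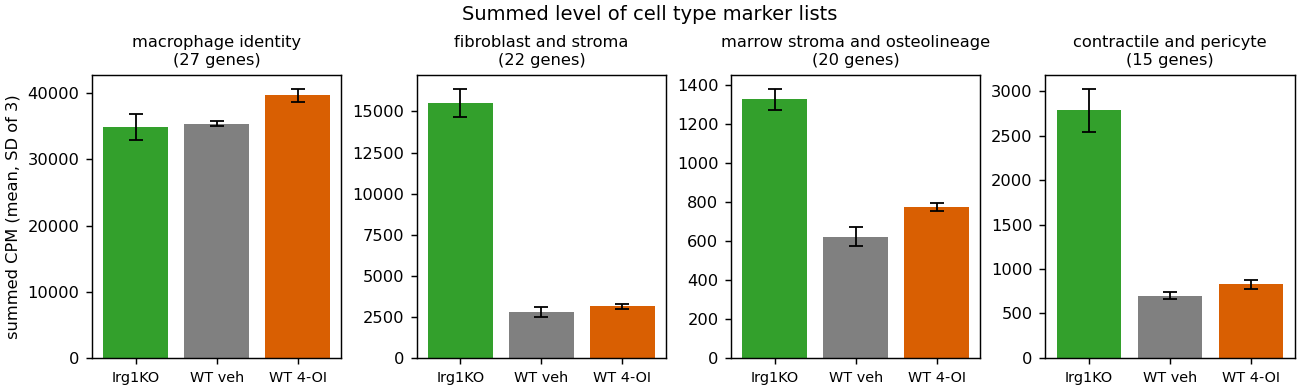
Bars give the mean summed CPM of 4 marker lists in Irg1KO, wild-type vehicle and 4-OI libraries, with the SD of 3 as error bars and each axis starting at 0. The 3 stromal lists are highest in Irg1KO. Vehicle and 4-OI overlap for the fibroblast list, and 4-OI lies above vehicle without overlap for the marrow stroma and contractile lists. The macrophage list is highest with 4-OI, at 38768 to 40685 CPM. Its member Cd36 alone averaged 4433 CPM with 4-OI and 1152 CPM in Irg1KO, and 11 of 27 tested members were lower with 4-OI.

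Genes of the ATF4 stress response, which senses amino acid shortage, were mostly higher in the knockout: 21 of 30 tested were lower with 4-OI and 5 higher, with a median of -0.36. Among the 26 called, vehicle lay on the 4-OI side of the midpoint in 8, on the knockout's side in 5, and did not depart from it in 13. Phgdh, the first enzyme of serine synthesis, stood at 9.51, 9.06 and 7.94 CPM with 4-OI, at 26.8, 26.6 and 23.1 CPM in the knockout and at 9.89, 9.73 and 10.1 CPM in wild-type vehicle (-1.52, SE 0.10). Nupr1, a stress-induced nuclear protein, differed by -2.19 (SE 0.14), Aldh1l2, a mitochondrial folate enzyme, by -1.68 (SE 0.13) and Asns, asparagine synthetase, by -1.04 (SE 0.08). Atf4 itself was not called (-0.06). The glycine transporter Slc6a9 went the other way, at 21.2, 25.2 and 20.8 CPM with 4-OI, 2.67 to 5.57 CPM in the knockout and 1.12 to 1.73 CPM in vehicle (2.5, SE 0.16). The stromal sums given above were also higher in the knockout than with 4-OI, with vehicle on the 4-OI side in all 20 called fibroblast and stroma genes. Phgdh, Nupr1 and Aldh1l2 are among the 8 called ATF4 genes with vehicle on that side. The part of stromal cells in the ATF4 differences was not tested.

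Macrophage genes themselves differed in both directions. Of 27 tested on the identity list, 15 were higher and 11 lower with 4-OI, with a median of 0.15. Mrc1, the mannose receptor CD206, stood at 483, 486 and 482 CPM with 4-OI, at 1573, 1534 and 1569.7 CPM in the knockout and at 1495, 1529 and 1463 CPM in wild-type vehicle (-1.69, SE 0.05). Maf, a transcription factor of macrophages, stood at 130.1, 144.5 and 147 CPM with 4-OI and at 365, 377 and 387 CPM in the knockout (-1.42, SE 0.06). Cd36, a scavenger receptor for oxidised lipid, stood at 4665, 4413 and 4219.6 CPM with 4-OI, at 1106, 1109 and 1241 CPM in the knockout and at 1112, 1176 and 1165 CPM in wild-type vehicle (1.94, SE 0.06). For Mrc1 and Cd36 the knockout and vehicle were close and 4-OI stood apart. Cebpa, a myeloid transcription factor, differed by 1.22 (SE 0.05), Irf8 by 1.15 (SE 0.05) and Spi1, which encodes PU.1, by 0.53 (SE 0.05). The complement genes C1qa, C1qb and C1qc differed by -0.83, -0.38 and -0.38 (SE 0.05 each). With Mrc1, the endocytic adaptor Dab2 was among the 6 most abundant genes at least 2-fold lower with 4-OI (-1.07, SE 0.05).

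In a further set, vehicle lay outside both groups, so that 4-OI and the knockout stood on the same side of untreated wild type. Adam23, a membrane protein of the disintegrin family, stood at 4.99, 4.03 and 5.15 CPM with 4-OI, at 8.68, 8.57 and 6.79 CPM in the knockout and at 0.656, 0.735 and 0.874 CPM in wild-type vehicle. Vehicle was below every library of both groups, 3.03 under their midpoint. S1pr3, a receptor for sphingosine-1-phosphate, was similar, with 6.65 to 8.13 CPM with 4-OI, 14.0 to 17.4 CPM in the knockout and 2.01 to 2.62 CPM in vehicle, as were Cobll1 and Ddit4l, at 2.31 and 2.27 under the midpoint. Ednrb, the endothelin receptor B, was below both groups in vehicle too, though the groups were far apart: it stood at 103, 131 and 114 CPM with 4-OI, at 14.8, 15.4 and 17.8 CPM in the knockout and at 2.03, 2.90 and 4.37 CPM in vehicle (2.87, SE 0.17). Ednrb and Kctd12 (0.48, SE 0.05) are neighbours of Acod1 on its chromosome, where 5 of 13 tested neighbours were higher and 4 lower with 4-OI, shares near the 23.5% and 34.2% of all genes. With vehicle above both groups, Parvg, a parvin of blood cells, stood at 24.8 to 26.1 CPM with 4-OI, 14.0 to 20.6 CPM in the knockout and 40.1 to 46.5 CPM in vehicle (0.64, SE 0.10). Ppp1r9a (0.49, SE 0.12) and Traf3ip3 (0.34, SE 0.13) were placed alike, and the call of Traf3ip3 was lost on the log2(FPKM + 1) scale, without 4-OI replicate 3 and without knockout replicate 3. As the midpoint rests on the same libraries, the shared side of vehicle is a description of 3 groups at different hours and genotypes.

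Other genes at least 2-fold apart had vehicle between the groups with no departure from the midpoint by this test. Tnfrsf11b, osteoprotegerin, the decoy receptor that restrains osteoclasts, stood at 1.23, 1.54 and 1.29 CPM with 4-OI, at 21.3, 20.9 and 18.6 CPM in the knockout and at 5.24, 5.02 and 5.07 CPM in wild-type vehicle (-3.88, SE 0.16; vehicle 0.05 below the midpoint, adjusted p = 0.821). The difference of Tnfrsf11b ran from -4.01 to -2.54 over alternatives. The acute-phase gene Saa3 (-2.46, SE 0.15) and Pla2r1, a phospholipase receptor (-2.07, SE 0.15), were placed in the same way, as was Etl4 (-2.34, SE 0.18). Over alternatives Pla2r1 ran from -2.16 to -1.14 and Etl4 from -2.39 to -0.97, so that Etl4 could fall under 2-fold. On the higher side, Cytip, a regulator of leukocyte adhesion, stood at 17.3, 20.9 and 21.5 CPM with 4-OI, at 5.21, 4.54 and 7.90 CPM in the knockout and at 8.94, 9.73 and 10.6 CPM in vehicle (1.78, SE 0.14). Dynlt1b (1.45, SE 0.10) and Bmf, a promoter of apoptosis (1.41, SE 0.15), were not called off the midpoint either. The difference of Bmf ran from 0.69 to 1.49 over alternatives, and its vehicle lay 0.30 below the midpoint (adjusted p = 0.0601). A missed call does not place vehicle at the midpoint. Lars2, mitochondrial leucyl-tRNA synthetase, was called (1.38, SE 0.30) but stood at 199.8, 86.6 and 111.5 CPM in the 4-OI libraries, so that replicate 1 held much of the difference.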

How the data were processed

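RNA was measured in 12 libraries, and 6 of them form the comparison. The submitters' processing notes name the tools HISAT2, StringTie, Bowtie2 and RSEM and, as builds, GRCm39 and mm39; versions and settings are not given in the sources used here. The deposited expected counts, per the file headers, are estimated reads or fragments per gene. At most 2 of the 6 libraries gave a whole-number count for Slc7a11, Prdx1, Pkm, Eno1, Ifit3, Uhrf1, Ppp1r9a and Dynlt1b, among other genes. The deposited FPKM, per the file headers, are scaled for transcript length and library total. Genes absent from a file were set to 0, and at least 1 file held 16145 genes.

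Expected counts were rounded and tested in R 4.3.3 with edgeR 4.0.16 (filterByExpr, TMM, robust quasi-likelihood F test) in 1 fit of all 12 libraries, with Benjamini-Hochberg adjustment over 12148 genes. The SE follows from F, as the size of the log2 fold change over its root. The common biological coefficient of variation was 4.71%. For scaling, TMM gave the 4-OI libraries 0.944 to 0.949 and the knockout libraries 1.012 to 1.021. On simulated data for 4-OI against the knockout (12002 genes in the fit), the fit found 80% of 100 genes changed by 0.5 (log2) and 97% of 100 changed by 1, and made 12 false calls. So few planted genes do not show how scaling performs when most genes differ.

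The groups compared and the 35 gene lists (688 symbols, 636 matched to the files, 1 by a synonym) were chosen with earlier results of these data known. The naming rule took Acod1, Hmox1 and Nqo1; the 8 highest and 8 lowest fold changes and the 6 most abundant on each side at 2-fold or more, with a mean of at least 5 CPM, no overlap and no provisional name; 4 per midpoint class; and 4 per list by adjusted p. Other members named, and the 8 genes with vehicle not called off the midpoint, were chosen after their values were seen. Promoter windows came from a RefSeq table of GRCm38.p6, another build than the files', and no coordinate was joined to the files. Alternatives used DESeq2 1.42.0 and limma 3.58.1; pandas 2.3.3 under Python 3.11.15 handled the tables, and matplotlib 3.10.9 the plots. Lengths other than that of Acod1, and annotation columns, were not used, and some genes of the lists are not reported by name here.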

Additional observations from a re-analysis of the deposited data

How the results depend on the processing

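The 7011 calls became 6472 to 7128 when a library was left out, 7100 with RLE scaling, 7023 with upper-quartile scaling, 7012 with TMM factors free of stromal genes, 6618 with DESeq2, 7356 without a filter, 6718 with at least 10 counts in 6 libraries, 7124 and 7106 on log2 FPKM with 1 or 0.1 added, and 7316 in a fit of the groups compared, whose split was 3644 higher and 3672 lower (49.8% higher). A test against a 2-fold change called 1238 genes, 214 higher and 1024 lower with 4-OI. On log2(FPKM + 1), 1767 genes were higher, and those at least 2-fold apart were 181 higher and 756 lower; on log2(FPKM + 0.1), 1762 were higher. The added constant by construction shrinks the fold of weak genes, and the cause of the change in split was not tested. Wild-type vehicle departed from the midpoint in 5267 to 6233 genes over its alternatives.

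With the replicate number as a block, 7043 genes were called, 2874 higher and 4169 lower. Whether the numbers pair the samples is not given in the labels. Deviations of 4-OI and knockout libraries with the same number correlated at 0.02, 0.01 and 0.05, and those with different numbers at -0.04 to 0.02. Values this small, taken around group means of 3 libraries, cannot settle whether samples were paired.

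For 280 named genes, 5201 of 5308 values kept their direction and side of the threshold, 103 lost the call, 4 gained it and 0 reversed. The median of 9 of 35 lists changed sign under some alternative; the report gives no direction for those. The depth limits genes of few counts in 1 group, such as Esam, Il1f9, Cdcp1, Gprin3, Rspo2, Sfrp1, Ifit3b, Tnfrsf11b and Etl4. Their fold changes are given with their range in the report.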

Other observations

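Of 14 tested prostaglandin and leukotriene genes, 7 were higher with 4-OI and 3 lower, beside 23.5% and 34.2% of all genes. Alox5ap, which presents arachidonic acid to 5-lipoxygenase, stood at 731, 787 and 751 CPM with 4-OI and at 334, 317 and 356 CPM in the knockout (log2 fold change 1.17, SE 0.05). Pla2g4a, the phospholipase that frees arachidonic acid, differed by 1.10 (SE 0.05) and Ptgs1, cyclooxygenase 1, by 0.78 (SE 0.08). Ptgs2, cyclooxygenase 2, went the other way, at 23.3, 21.4 and 20.2 CPM with 4-OI, 36.2, 42.9 and 33.5 CPM in the knockout and 16.7, 13.2 and 13.2 CPM in wild-type vehicle (-0.80, SE 0.15), so that the knockout stood above both.

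Of 7 tested neutrophil genes, 4 were higher with 4-OI and 1 was lower, beside 23.5% and 34.2% of all genes, and 2 were not called. Mmp8, the neutrophil collagenase, stood at 294, 318 and 326 CPM with 4-OI, at 34.9, 37.1 and 37.1 CPM in the knockout and at 76.0, 85.6 and 77.0 CPM in wild-type vehicle (3.10, SE 0.06), without overlap among the groups. S100a8 differed by 3.12 (SE 0.14) at 27.0 to 37.5 CPM with 4-OI. The lower member, Csf3r, the receptor for the growth factor G-CSF, stood at 23.6, 26.5 and 24.8 CPM with 4-OI and at 35.1, 33.7 and 37.7 CPM in the knockout (-0.50, SE 0.08). The granule genes Camp, Elane, Prtn3 and Retnlg and the receptor Cxcr2 had at most 10 expected counts in each of the 6 libraries.

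Of 9 tested genes of alternative activation, 5 were lower and 3 higher with 4-OI, beside 34.2% and 23.5% of all genes. Tgm2, transglutaminase 2, differed by -1.13 (SE 0.05), with 106 to 112 CPM with 4-OI and 232 to 240.3 CPM in the knockout. Arg1, arginase 1, had under 2 CPM in every library. On the osteoclast list, 7 of 14 tested were higher and 5 lower, the latter share near the 34.2% of all genes. Fos differed by 1.19 (SE 0.07) and Src, a kinase needed for resorption, by -0.99 (SE 0.13), at 8.91 to 13.0 CPM with 4-OI, 20.7 to 23.9 CPM in the knockout and 5.07 to 7.22 CPM in wild-type vehicle. Kdr, a receptor for vascular endothelial growth factor, stood at 4.6 to 5.51 CPM with 4-OI, 23.6 to 25.7 CPM in the knockout and 26.8 to 30.9 CPM in vehicle (-2.32, SE 0.11), opposite in direction to the endothelial adhesion gene Esam.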
